A study of Mus musculus with 27 samples.

Results

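The 8 genes described here, Irf1, Irf2, Irf3, Irf4, Irf5, Irf7, Irf8 and Irf9, encode interferon regulatory factors (IRFs). They were chosen by symbol from the 55367 gene symbols that both count tables of the series share. The series holds 27 mouse RNA libraries in 9 groups of 3, from 2 experiments on axon injury. In the first, L4-L5 dorsal root ganglia, which hold the sensory cell bodies of the sciatic nerve, came from 5 groups of mice. These were Ptpn2 KO mice after sciatic nerve injury, wild-type mice after injury with RU521, wild-type mice after injury alone, Ptpn2 KO mice after sham surgery and wild-type mice after sham surgery. RU521, an inhibitor of the DNA sensor cGAS, was injected into the sciatic nerve, and tissue was taken 3 days after injury. The labels name ganglia, the text of the series speaks of nerve samples, and titles call the sham groups intact. In the second experiment, retinal ganglion cells, the neurons whose axons form the optic nerve, were picked as single cells 3 days after optic nerve injury. All of these mice were Ptpn2 flox animals whose eyes had received AAV-Cre or GFP 2 weeks before the injury, so every retinal group shares the floxed allele, a virus injection and the injury. Groups were Ptpn2 KO with IFNγ, wild type with IFNγ, Ptpn2 KO with PBS and wild type with PBS, the injection being given right after injury. No source used here gives the Cre that made the ganglion KO, the number of cells per retinal library, or whether the 3 libraries of a group are separate animals. The p-values below therefore measure the spread between these libraries, which may be technical.

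IRFs bind interferon-stimulated response elements (ISRE) in DNA and stand at both ends of interferon signalling. Irf3 and Irf7 are switched on by kinases downstream of nucleic acid sensors and drive interferon genes, and Irf5 is used by toll-like receptors in myeloid cells. Interferons then act through JAK kinases and STAT proteins: Irf9 joins STAT proteins in the complex ISGF3, while STAT dimers bind gamma-activated sites (GAS) and turn on genes such as Irf1, an activator whose sites Irf2 can occupy as a repressor. Irf4 and Irf8 work with partners such as Spi1 (PU.1) in lymphocytes and in myeloid cells, microglia included. The phosphatase made from Ptpn2 takes phosphate off JAK kinases and STATs.

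Depth was 14813365 to 22414750 counts in ganglion and 13239988 to 17122057 counts in retinal libraries. All 8 genes passed the low-count filter in ganglia, and 5 of 8 passed in retinal cells, where Irf4, Irf5 and Irf8 did not. Levels are given as CPM, the count scaled by TMM to a common library size, and differences as log2 fold changes ± SE from edgeR, called at an adjusted p under 0.05 over all genes tested. Wild-type sham libraries 1 and 3 and RU521 library 1 had 26235, 26802 and 28803 detected genes, and the other 12 ganglion libraries had 29580 to 34340. Ptpn2 itself was not lower in injured ganglia labelled Ptpn2 KO: it averaged 23.0 ± 4.10 CPM in KO injured and 17.7 ± 1.97 CPM in wild-type injured ganglia (SD, n = 3 each). After sham surgery Ptpn2 averaged 12.8 ± 2.70 CPM in KO and 14.6 ± 4.10 CPM in wild-type ganglia, and neither difference between genotypes was called. With injury Ptpn2 rose by 0.84 ± 0.22 in KO ganglia (edgeR adjusted p = 0.0244) and differed by 0.28 ± 0.22 in wild type (edgeR adjusted p = 0.415). Reads on any exon were counted, also those of a transcript with a deleted part. This does not check the labels, and every direction between genotypes below rests on them.

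Stretches before the starts of 4 members are shown, those of the members that held a GAS match and that of Irf7, the member with the largest differences. They are RefSeq promoter sequences of GRCm38.p6, limited to bases outside annotated exons and written in the direction of the gene, with capitals marking matches to GAS.
Irf1 (chr11:53769764-53770013, plus strand): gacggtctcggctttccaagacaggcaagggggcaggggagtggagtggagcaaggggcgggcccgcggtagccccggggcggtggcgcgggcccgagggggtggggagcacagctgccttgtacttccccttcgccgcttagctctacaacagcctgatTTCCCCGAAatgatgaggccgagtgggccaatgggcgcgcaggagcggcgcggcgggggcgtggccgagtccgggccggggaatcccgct
Irf7 (chr7:141266482-141266674, minus strand): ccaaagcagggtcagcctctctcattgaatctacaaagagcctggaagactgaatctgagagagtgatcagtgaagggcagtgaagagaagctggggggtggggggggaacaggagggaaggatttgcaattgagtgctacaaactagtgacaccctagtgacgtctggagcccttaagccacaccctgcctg
Irf8 (chr8:120736108-120736357, plus strand): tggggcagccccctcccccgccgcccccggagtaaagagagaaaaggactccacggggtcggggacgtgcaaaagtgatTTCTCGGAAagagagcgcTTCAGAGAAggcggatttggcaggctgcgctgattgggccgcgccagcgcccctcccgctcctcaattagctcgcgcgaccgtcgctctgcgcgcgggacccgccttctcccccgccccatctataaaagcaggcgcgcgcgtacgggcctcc
Irf2 (chr8:46739516-46739731, plus strand): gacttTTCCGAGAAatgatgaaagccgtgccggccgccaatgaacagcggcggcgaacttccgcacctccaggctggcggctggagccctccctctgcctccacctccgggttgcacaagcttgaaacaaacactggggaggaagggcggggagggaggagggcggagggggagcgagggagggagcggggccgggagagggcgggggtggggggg
The letters searched were TTCNNNGAA for GAS and GAAANNGAAA for ISRE, on both strands, from 250 bases before to 50 bases after each start. Of 32851 mouse promoters of this length, 8.30% held a GAS match and 3.44% an ISRE match. Irf1 held 1 GAS match, at -90 to -82 from its start. Irf8 held 2 GAS matches, at -171 to -163 and -153 to -145 from the first of its starts. Irf2 held a GAS match at -224 to -216 and an ISRE match at -241 to -232 from its start, the ISRE match lying in an exon of the neighbouring gene Gm16675 and so not printed. No match to either motif lay in the windows of Irf3, Irf4, Irf5, Irf7 and Irf9, which says only that these letters are not in those windows.

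**Figure D1:**
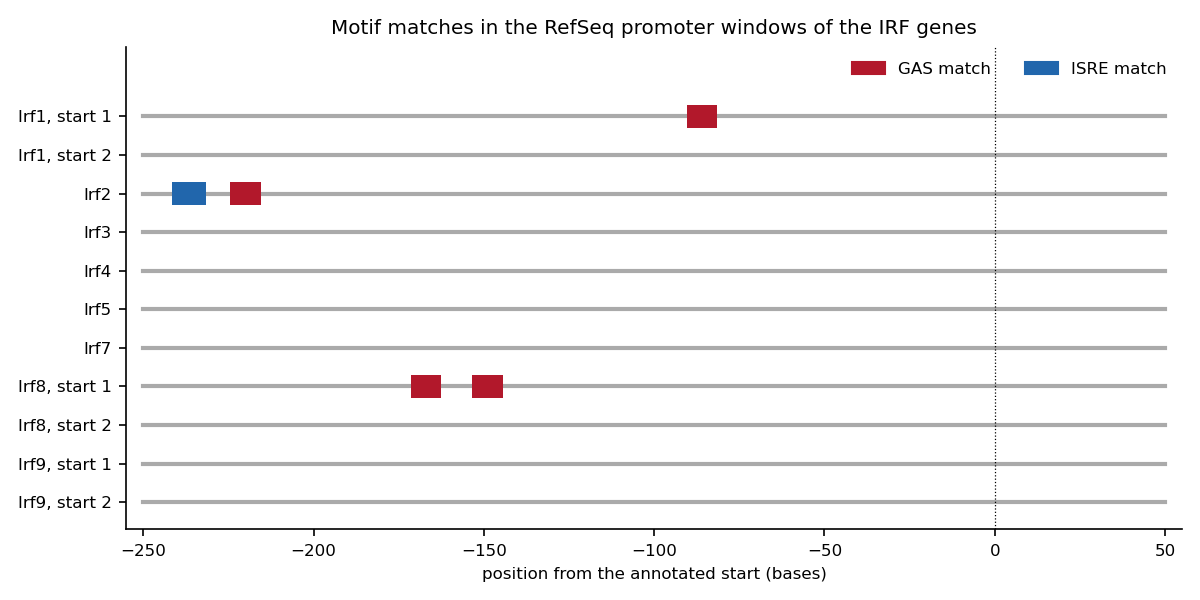
Positions of GAS and ISRE matches in the RefSeq promoter windows of the 8 IRF genes, in bases from the annotated start, with a line of its own for each start. Matches lie upstream of the starts of Irf1, Irf2 and Irf8, and the other windows are empty.

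In the ganglia, Irf7, Irf1 and Irf9 stood higher in the injured group labelled Ptpn2 KO than in every other group. Irf7, which drives type I interferon genes and is itself induced by interferon, changed most. It had 795, 189 and 178 CPM in KO injured ganglia, 13.3, 22.4 and 17.5 CPM in wild-type injured ganglia with RU521, and 20.3, 26.4 and 22.5 CPM in wild-type injured ganglia. After sham surgery Irf7 had 17.5, 18.0 and 21.9 CPM in KO and 8.89, 22.3 and 8.39 CPM in wild-type ganglia. All 3 KO injured libraries lay far above the other 12, and library 1 of them was 4.33 times the mean of the other two. Irf7 rose by 4.07 ± 0.53 in KO injured against wild-type injured ganglia (edgeR adjusted p = 0.00036) and by 4.34 ± 0.54 in KO injured against KO sham ganglia (edgeR adjusted p = 0.000119). Without KO injured library 1 these differences were 2.98 and 3.23, and both were still called. With injury in wild type Irf7 differed by 0.81 ± 0.49 (edgeR adjusted p = 0.275). With only the 2 groups compared in the fit, Irf7 in KO injured against wild-type injured ganglia missed the threshold (edgeR adjusted p = 0.0523).

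Irf1, an activator of many interferon-induced genes, was more even within the group. It had 67.8, 55.8 and 60.9 CPM in KO injured ganglia, against 18.9, 27.2 and 24.6 CPM in wild-type injured ganglia and 24.2, 17.6 and 19.8 CPM in KO sham ganglia. The KO injured libraries overlapped neither group, and wild-type sham ganglia had 16.6, 18.4 and 17.8 CPM. Irf1 rose by 1.38 ± 0.21 in KO injured against wild-type injured ganglia (edgeR adjusted p = 0.00142) and by 1.58 ± 0.21 in KO injured against KO sham ganglia (edgeR adjusted p = 0.000249). Of its exon length 20.0% overlaps Gm17334, and reads were counted without strand, so for that share a read could come from either gene.

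Irf9, the DNA-binding part of ISGF3, followed with smaller steps. It had 98.7, 63.8 and 65.4 CPM in KO injured ganglia, 33.5, 40.7 and 36.3 CPM in wild-type injured ganglia, 25.1, 29.3 and 31.2 CPM in KO sham ganglia and 22.7, 24.2 and 23.6 CPM in wild-type sham ganglia. KO injured libraries were the highest and wild-type sham libraries the lowest of these groups, and no 2 of the 4 groups overlapped. Irf9 rose by 1.04 ± 0.20 in KO injured against wild-type injured ganglia (edgeR adjusted p = 0.00974) and by 1.41 ± 0.20 in KO injured against KO sham ganglia (edgeR adjusted p = 0.000468). The call between the injured genotypes was lost without wild-type injured library 1 or 3 or KO injured library 1, at edgeR adjusted p of 0.0754, 0.0579 and 0.0870. Irf9 was also the 1 member called for injury in wild type, at 0.65 ± 0.20 (edgeR adjusted p = 0.0390). That call was lost without wild-type sham library 1 or 3, or without any 1 of the wild-type injured libraries (edgeR adjusted p between 0.0671 and 0.155).

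Markers of cell types were set beside these differences. Between the injured genotypes edgeR called 1.39% of all genes higher. In either direction it called 2.2%, and 1% without KO injured library 1. Of 18 macrophage and microglia markers 3 rose in KO injured against wild-type injured ganglia, and 0 of 18 without KO injured library 1. Their sum was 3558 to 4207 CPM in KO injured and 2998 to 3101 CPM in wild-type injured ganglia. Of 10 markers for T and NK cells 1 was called higher, and 0 of 10 without that library, with sums of 40.7 to 73.6 CPM in KO injured and 19.8 to 27.0 CPM in wild-type injured ganglia. Of 7 neutrophil markers 0 were called, with sums of 3784 to 3922 CPM in KO injured and 3142 to 4161 CPM in wild-type injured ganglia. With injury the markers moved more. In KO injured against KO sham ganglia 14 of 18 macrophage and microglia markers and 4 of 7 neutrophil markers rose, where 6.34% of all genes were called higher, and 4 of 11 sensory neuron markers fell, where 4.57% were called lower. Without KO injured library 1 these counts were 12 of 18, 0 of 7 and 0 of 11. The share of all genes called in either direction was then 5.63%, against 10.9% with all libraries. In wild-type injured against wild-type sham ganglia 15 of 18 and 7 of 7 rose, where 8.6% of all genes were called higher, and 7 of 11 sensory neuron markers fell, where 7.98% were called lower. Leaving out wild-type sham libraries 1 and 3 left 1 library in that group. The median differences of these 3 lists in wild type were then 0.93, 1.57 and -0.27, against 1.71, 2.33 and -0.89 with all libraries. The sensory neuron markers summed to 4391, 4315 and 4541 CPM in KO injured against 6933, 5425 and 5280 CPM in KO sham ganglia, and to 4565, 4011 and 4097 CPM in wild-type injured against 8002, 5514 and 8440 CPM in wild-type sham ganglia. The part of these cells in the levels of Irf7, Irf1, Irf9 and Irf5 was not tested, and in whole ganglia fewer cells of a type and less RNA per cell cannot be told apart.

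Irf5, used downstream of toll-like receptors in myeloid cells, had 40.8, 20.1 and 19.6 CPM in KO injured ganglia, 17.0, 13.1 and 21.3 CPM in wild-type injured ganglia, 10.9, 10.6 and 8.32 CPM in KO sham ganglia and 9.76, 10.3 and 8.98 CPM in wild-type sham ganglia. Injured libraries of both genotypes lay above all sham libraries, and the injured groups overlapped each other. Irf5 rose by 1.43 ± 0.28 with injury in KO ganglia (edgeR adjusted p = 0.00417), a value of 0.96 without KO injured library 1. With injury in wild type it differed by 0.82 ± 0.27, which missed the threshold (edgeR adjusted p = 0.0515), but 4 of 14 alternatives called it, DESeq2 and limma-voom among them (adjusted p of 0.0253 and 0.00560). Of the exon length of Irf5 14.1% overlaps Tnpo3 on the other strand. Between KO injured and wild-type injured ganglia Irf5 differed by 0.65 ± 0.27 (edgeR adjusted p = 0.302). KO injured library 1 was highest of its group for Irf5 (2.05 times the mean of the other two) and for Irf9 (1.53 times), while for Irf1 it stood at 1.16 times.

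**Figure D2:**
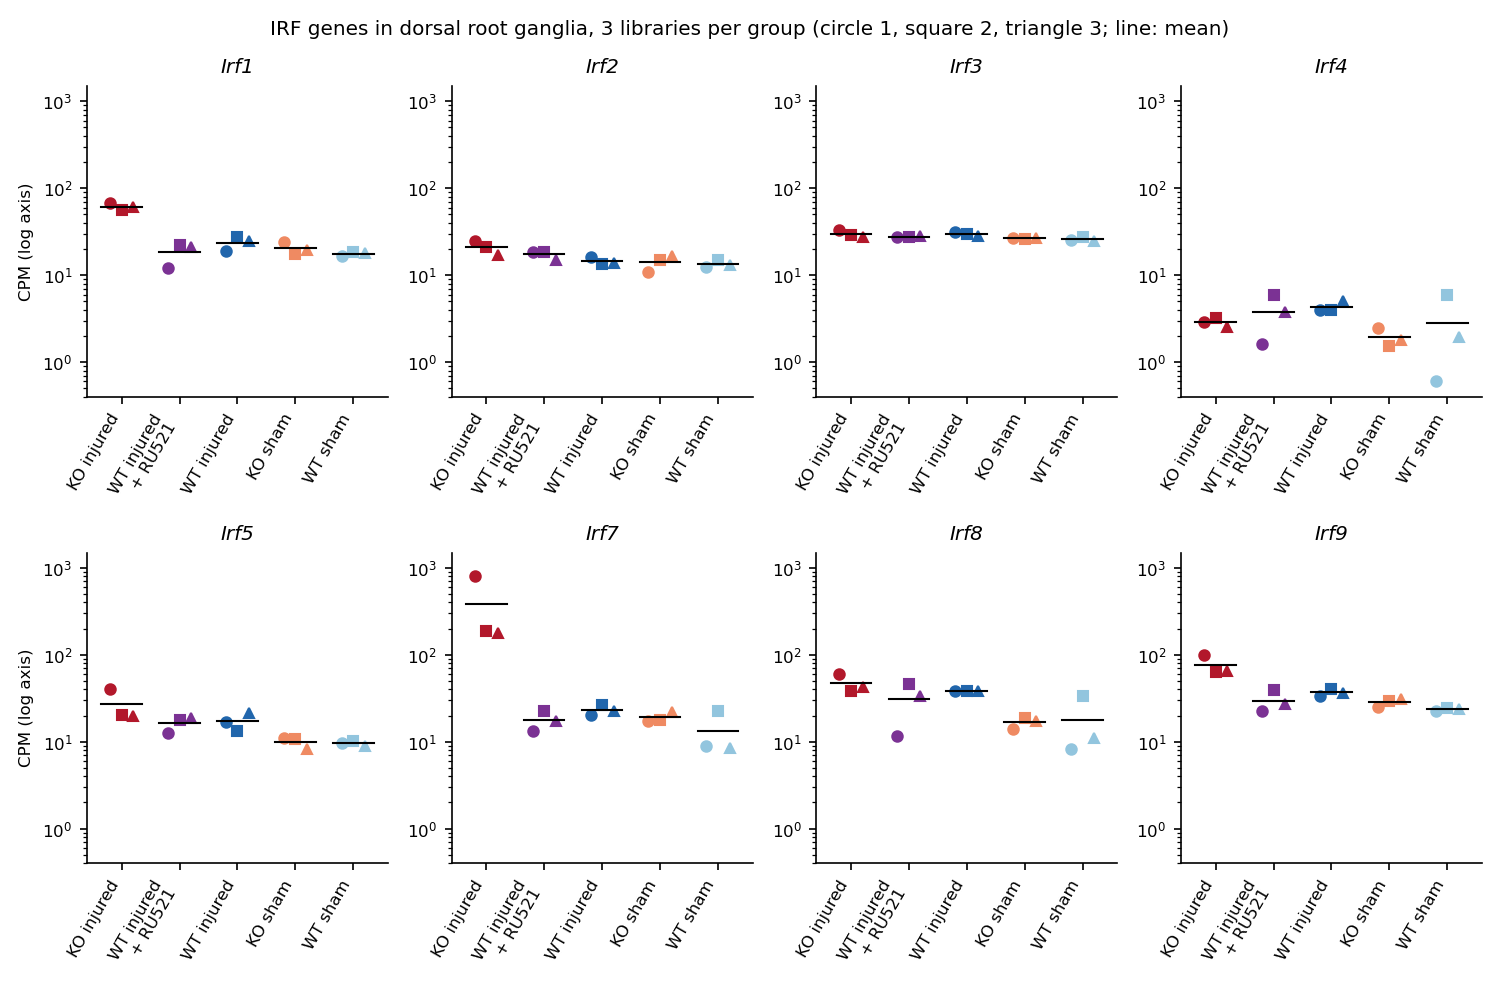
Level of each IRF gene in CPM (log axis) in the 15 ganglion libraries, with 1 point per library and a line at the mean of each group. Irf7 had 178 to 795 CPM in KO injured ganglia and at most 26.4 CPM elsewhere, while Irf3 lay between 24.7 and 33.4 CPM in all 15 libraries.

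Irf8, a factor of macrophages and microglia that pairs with Spi1, stood higher in libraries with more macrophage marker RNA. It had 59.8, 38.2 and 42.4 CPM in KO injured ganglia, 38.2, 38.2 and 38.3 CPM in wild-type injured ganglia, 14.2, 18.9 and 17.5 CPM in KO sham ganglia and 8.32, 33.9 and 11.1 CPM in wild-type sham ganglia. Both injured groups lay above both sham groups. The difference with injury was 1.47 ± 0.46 in KO (edgeR adjusted p = 0.0540) and 1.11 ± 0.46 in wild type (edgeR adjusted p = 0.109), neither of them called. DESeq2 and limma-voom did call Irf8 for injury in KO, at adjusted p of 0.0103 and 0.000757. So did edgeR with no filter, with the replicate block, with detected genes as a covariate or with only the compared groups, so that 6 of 13 alternatives called it, with adjusted p over all of them between 4.28e-09 and 0.185. Without wild-type sham library 2, the highest of its group, the difference in wild type was 1.97 and was called (edgeR adjusted p = 0.00222), as it was in 4 of 14 alternatives in all, and without libraries 1 and 3 it was 0.22. The summed level of the 18 macrophage and microglia markers, all of them detected in each ganglion library, was 4207, 3648 and 3558 CPM in KO injured and 3101, 3024 and 2998 CPM in wild-type injured ganglia. It was 838, 1165 and 1118 CPM in KO sham and 416, 1292 and 507 CPM in wild-type sham ganglia, where library 2 was highest for both measures. The part of these cells in the Irf8 values was not tested.

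Irf4, a factor of B cells and plasma cells, was the lowest member per length in every ganglion group (as TPM), at 0.610 to 5.99 CPM over the 15 libraries, and edgeR called it in no ganglion comparison. Its difference with injury in wild type was 0.66 ± 0.58 (edgeR adjusted p = 0.469). Limma-voom called it there (1.54, adjusted p = 0.00202), and so did edgeR without wild-type sham library 2 (1.79, edgeR adjusted p = 0.0169), while without libraries 1 and 3 it was -0.38. Irf4 had 0.610, 5.85 and 1.92 CPM in wild-type sham ganglia, where 7 B cell and plasma cell markers summed to 17.2, 121 and 25.1 CPM. Library 2 was thus highest for both, and the part of these cells in the Irf4 values was not tested.

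Irf3, which is known to be switched on by phosphorylation of its protein, was the steadiest member. Its level was 33.4, 28.8 and 27.8 CPM in KO injured ganglia, 31.8, 29.7 and 28.5 CPM in wild-type injured ganglia, 26.5, 26.1 and 27.0 CPM in KO sham ganglia and 25.7, 27.3 and 24.7 CPM in wild-type sham ganglia. Genotypes overlapped after injury and after sham surgery, while KO injured and wild-type injured libraries lay just above all sham libraries. With injury Irf3 differed by 0.21 ± 0.12 in wild type and by 0.18 ± 0.12 in KO ganglia. With RU521 it had 27.6, 27.2 and 28.3 CPM, below all wild-type injured libraries. EdgeR called Irf3 in no comparison, but limma-voom called it for injury in wild type (0.24, adjusted p = 0.0458). Irf2, the repressor that shares sites with Irf1, ranged from 10.8 to 25.0 CPM over the 15 libraries. Its difference of 0.57 ± 0.20 for injury in KO ganglia missed the threshold (edgeR adjusted p = 0.0801), while DESeq2 called it (DESeq2 adjusted p = 0.0408). Irf2 had 16.9 to 25.0 CPM in KO injured ganglia, above KO sham (10.8 to 16.8 CPM) and wild-type injured ganglia (13.6 to 16.2 CPM). Between the injured genotypes it differed by 0.53 ± 0.20, which was not called (edgeR adjusted p = 0.241).

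Counted together, 4 of 8 members rose with injury in the ganglia labelled Ptpn2 KO (Irf1, Irf5, Irf7 and Irf9), where 6.34% of all tested genes were called higher. The median difference of the 8 was 1.42, against -0.01 over all genes. In KO injured against wild-type injured ganglia 3 of 8 rose (Irf1, Irf7 and Irf9), where 1.39% of genes were called higher, with a median of 0.59 against -0.01. With injury in wild type 1 of 8 was called higher, where 8.6% of genes were called higher, so that this count is near the background. The median difference of the 8 was 0.65 there, against 0.000378 over all genes, and the lowest of the 8 was 0.11. An unadjusted edgeR p under 0.05 was held by 3 of 8 members and by 5803 of the 18517 genes tested. These comparisons share the KO injured, wild-type injured or sham libraries and are not independent of each other. In KO sham against wild-type sham ganglia edgeR called 0 of 8, where 0.135% of genes were called. There 0 members had an unadjusted edgeR p under 0.05, beside 1607 of the 18517 genes tested. DESeq2 and limma-voom also called 0 of 8 there, and the fitted differences lay between -0.51 and 0.54.

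**Figure D3:**
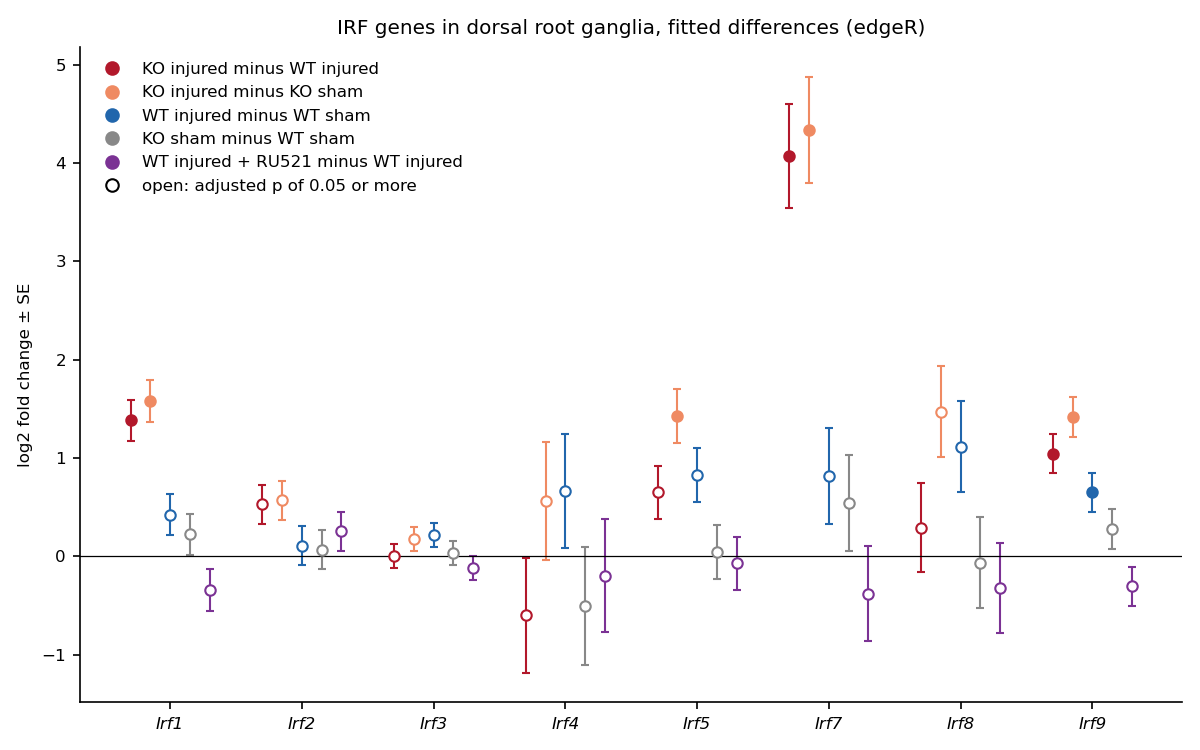
Fitted log2 fold change ± SE of each IRF gene in ganglion comparisons, with filled points for an edgeR adjusted p under 0.05 and open points otherwise. Irf7 stands at 4.07 and 4.34 in the comparisons of KO injured ganglia with wild-type injured and with KO sham ganglia, and the points for KO sham against wild-type sham and for RU521 are all open.

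The test of whether the injury effect differed between genotypes called 1 of 8 members, Irf7, where 0.308% of all genes were called higher. The injury effect on Irf7 was 3.53 ± 0.70 larger in KO than in wild-type ganglia (edgeR adjusted p = 0.0372), and 2.43 larger without KO injured library 1. The call was lost without any 1 of the wild-type injured or KO sham libraries, at edgeR adjusted p between 0.0927 and 0.114. It was also lost with the replicate block and with only the compared groups in the fit. For Irf1 the same test gave 1.16 ± 0.30 (edgeR adjusted p = 0.129) and for Irf9 0.76 ± 0.29 (edgeR adjusted p = 0.367), neither called in the fit reported. DESeq2 and limma-voom called Irf1 as well, at adjusted p of 0.0211 and 0.00324. EdgeR called Irf1 with no filter, with detected genes as a covariate and with only the compared groups (edgeR adjusted p of 0.0201, 0.0405 and 0.0439). In all 5 of 20 alternatives called Irf1, and the fit of only the compared groups called Irf1 and not Irf7.

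RU521 left no IRF gene called. In wild-type injured ganglia with RU521 against wild-type injured ganglia edgeR, DESeq2 and limma-voom each called 0 of 8 members, where edgeR called 9.58% of all genes. At an unadjusted edgeR p under 0.05 stood 0 members, beside 4680 of the 18517 genes tested. Irf1 had 12.2, 22.5 and 21.1 CPM with RU521, against 18.9, 27.2 and 24.6 CPM without it, a difference of -0.34 ± 0.21 with a 95% interval from -0.75 to 0.07. Irf9 had 22.6, 39.3 and 27.4 CPM with RU521, against 33.5, 40.7 and 36.3 CPM without it (-0.31 ± 0.20, 95% interval -0.70 to 0.09). These groups overlapped, and the intervals allow a fall as well as no change. Irf8 had 11.8, 46.1 and 33.9 CPM with RU521, against 38.2, 38.2 and 38.3 CPM without it. The macrophage marker sum was 1165, 3405 and 2330 CPM with RU521, against 3101, 3024 and 2998 CPM without it, and 4 of these 18 markers fell, where 4.48% of all genes were called lower. The sensory neuron marker sum was 8752, 5353 and 6978 CPM with RU521, against 4565, 4011 and 4097 CPM without it, and 6 of these 11 markers rose, where 5.1% of all genes were called higher. Without RU521 library 1 the counts were 1 of 18 lower and 3 of 11 higher, where 3.56% of all genes were called in either direction. The part of these cells in the values of IRF genes was not tested. RU521 library 1 was lowest of its group for Irf1, Irf8, Irf9 and the marker sum. Cgas, which encodes the target of RU521, averaged 1.17 ± 0.716 CPM with RU521 and 2.15 ± 0.526 CPM without it (SD, n = 3 each), and was not called. With injury Cgas rose by 1.79 ± 0.49 in wild-type and by 1.88 ± 0.47 in KO ganglia (edgeR adjusted p of 0.0232 and 0.0179).

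Compared per length, as TPM, Irf3 was the highest member in every ganglion group but the KO injured one. In wild-type sham ganglia it averaged 20.9 ± 2.69 TPM, ahead of Irf1 at 12.3 ± 1.60 TPM and Irf9 at 12.2 ± 1.73 TPM, whose ranges overlapped each other and not that of Irf3 (SD, n = 3 each). Irf5, Irf7, Irf8 and Irf2 followed in that order with mean TPM between 9.25 and 5.07, each overlapping its neighbour, and Irf4 stood last at 1.42 ± 1.18 TPM. In KO injured ganglia Irf7 led at 108 to 528 TPM and did not overlap the rest. Behind it came Irf1 at 36.5 ± 5.61 TPM, Irf9 at 33.5 ± 10.8 TPM and Irf5 at 22.1 ± 11.3 TPM, each overlapping its neighbour, and then Irf3 at 20.6 ± 3.23 TPM. Irf8, Irf2 and Irf4 averaged 15.8, 6.73 and 1.38 TPM, with no overlap between these 3.

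Genes known to be driven by IRFs were also higher in the KO injured ganglia. The shares of all genes called higher, against which the counts of these lists stand, were 6.34% in KO injured against KO sham, 1.39% in KO injured against wild-type injured and 8.6% in wild-type injured against wild-type sham ganglia, as given above. Of 20 target genes of ISGF3 all 20 rose in KO injured against KO sham ganglia, with a median of 2.57, and 15 of 20 rose in KO injured against wild-type injured ganglia, with a median of 2.32. Ifit3, an antiviral effector, averaged 706 ± 385 CPM in KO injured and 44.7 ± 4.66 CPM in wild-type injured ganglia (SD, n = 3 each), a difference of 3.98 ± 0.30. Ifit1, which binds foreign RNA, differed by 4.16 ± 0.43 in the same comparison, and Rtp4 by 2.47 ± 0.23. With injury in wild type 2 of 20 rose, Rsad2 (1.59 ± 0.38) and Oas3 (1.95 ± 0.57), a count near that background. The list median was 0.33 there, and 0.21 without wild-type sham libraries 1 and 3. The sum of the 20 genes was 4492, 1868 and 1584 CPM in KO injured ganglia, and 322 to 452 CPM in the other 12 ganglion libraries. Library 1 was thus highest here as for Irf7, and without it 16 of 20 rose in KO injured against KO sham and 13 of 20 in KO injured against wild-type injured ganglia. In either direction 5.63% and 1% of all genes were called there, against 10.9% and 2.2% with all libraries.

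Of 20 target genes of Irf1 and IFNγ 16 rose in KO injured against KO sham ganglia (median 2.56) and 16 rose in KO injured against wild-type injured ganglia (median 2.18). Gbp2, a guanylate-binding protein, averaged 714 ± 127 CPM in KO injured and 33.3 ± 1.40 CPM in wild-type injured ganglia (SD, n = 3 each), a difference of 4.42 ± 0.24. Irgm1, an immunity-related GTPase, differed by 3.58 ± 0.21, and Cd274, which encodes the checkpoint ligand PD-L1, by 3.75 ± 0.24. With injury in wild type 1 of 20 rose, the caspase gene Casp1 (0.63 ± 0.18), no more than the background share. The list median was 0.33 there, and 0.016 without wild-type sham libraries 1 and 3. Casp1 was also the 1 gene of either target list called in KO sham against wild-type sham ganglia (1.06 ± 0.18), and is named there after its values were seen. The injury effect was called larger in KO than in wild-type ganglia for 11 of 20 of these genes and for 9 of 20 ISGF3 targets. Among them were Cxcl10 (4.88 ± 0.44), Gbp2 (4.04 ± 0.31) and Ifit3 (3.79 ± 0.38). Of all genes 0.308% were called higher by this test, and the list medians were 2.03 and 2.11. Without KO injured library 1 the counts were 8 of 20 and 7 of 20, where 0.268% of all genes were called in either direction, against 0.448% with all libraries.

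Among 11 partners and corepressors of IRFs, 3 rose in KO injured against wild-type injured ganglia, with a list median of 0.44. Stat2, a subunit of ISGF3, was one of them, at 104 ± 51.9 CPM in KO injured and 38.5 ± 3.68 CPM in wild-type injured ganglia (SD, n = 3 each), a difference of 1.44 ± 0.30. Batf2, a partner of Irf1, differed by 3.21 ± 0.52 in the same comparison. In KO injured against KO sham ganglia 6 of 11 rose, with a median of 1.18. Without KO injured library 1 the counts were 2 of 11 against wild-type injured and 3 of 11 against KO sham ganglia. In either direction 1% and 5.63% of all genes were called there, against 2.2% and 10.9% with all libraries. With injury in wild type 2 of 11 rose, Spi1 (1.85 ± 0.52) and Batf (1.69 ± 0.54), both of them expressed in leukocytes. The list median was 0.009 there, and 0.12 without wild-type sham libraries 1 and 3. Spi1 was the 1 partner called lower with RU521, at 14.8 ± 10.2 CPM with RU521 and 55.3 ± 2.79 CPM without it (SD, n = 3 each; -1.90 ± 0.52). Without RU521 library 1 no partner was called, where 3.56% of all genes were called in either direction, against 9.58% with all libraries. Spi1 is named for RU521 after its values were seen.

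Upstream of the IRFs, 4 of 20 sensors, adaptors and kinases rose in KO injured against wild-type injured ganglia, with a list median of 0.33. Those with the smallest p were the cGAS adaptor Sting1 (1.51 ± 0.20) and the RNA sensors Ifih1 (1.68 ± 0.34) and Ddx58 (1.37 ± 0.28). Without KO injured library 1 the count was 1 of 20, where 1% of all genes were called in either direction, against 2.2% with all libraries. With injury 7 of 20 rose in KO, where 6.34% of all genes were called higher, and 9 of 20 in wild type, where 8.6% were. The list median in wild type was 0.72, and 0.65 without wild-type sham libraries 1 and 3. Sting1 rose by 2.27 ± 0.20 with injury in KO and by 1.37 ± 0.20 with injury in wild type, and Myd88, the adaptor of toll-like receptors, by 1.55 ± 0.23 in KO and by 1.04 ± 0.23 in wild type. Of 7 interferon receptors and Janus kinases 0 were called between genotypes in injured or sham ganglia or for injury in KO, while Ifngr1, a chain of the IFNγ receptor, rose with injury in wild type (0.60 ± 0.18). The 11 interferon genes examined, Ifng and Ifnb1 included, did not pass the low-count filter in ganglia. They summed to 0.0436 to 1.5 CPM, highest in KO injured library 1, where 3 counts of 1 gene correspond to 0.134 to 0.203 CPM, so that a change in single interferon genes was not detectable at this depth.

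By the pattern of log2 levels over the 15 ganglion libraries, the genes most like Irf7 were Isg15, Ifi204 and Ifitm3 (Pearson r of 0.994, 0.989 and 0.988). Those most like Irf1 were Gbp3, Gbp6 and Il18bp (r from 0.957 to 0.965), and those most like Irf9 were Dpep2, Upp1 and Slfn9 (r from 0.973 to 0.975). Irf8 was most like Inpp5d, Vav1 and Lsp1 (r from 0.972 to 0.979), and Irf5 most like Slfn1, Cyp20a1 and Plod3 (r from 0.918 to 0.968). Irf4 was closest to H3f3a, Vpreb3 and Cd79b (r from 0.889 to 0.906). Irf3 was closest to Sp140, Mov10 and Ptgs1 (r from 0.867 to 0.873) and Irf2 to Rbm39, Ncoa3 and Usp24 (r from 0.843 to 0.857). These values describe genes measured in the same libraries, which share groups and depth.

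In the picked retinal ganglion cells the libraries of a group differed far more, with a biological coefficient of variation of 1.27 against 0.262 in ganglia. All 12 libraries held retinal ganglion cell markers, 9 to 11 of 11 detected, summing to 2817 to 7024 CPM. KO PBS library 2 also held 17 of 18 macrophage and microglia markers, summing to 5295 CPM, with Cx3cr1 and P2ry12, defining markers of microglia, at 598 and 39.5 CPM. In the other 11 libraries that sum was 14.4 to 213 CPM, P2ry12 was at 0, and Cx3cr1 was at most 0.706 CPM. Values that rest on KO PBS library 2 are therefore given with and without it. Ptpn2 averaged 13.1 ± 12.1 CPM in KO with IFNγ, 7.98 ± 7.22 CPM in wild type with IFNγ, 8.64 ± 1.31 CPM in KO with PBS and 7.06 ± 3.57 CPM in wild type with PBS (SD, n = 3 each), so here too the genotypes rest on the labels.

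Irf9, the ISGF3 subunit, was detected in all 12 retinal libraries and was lowest in wild type with PBS. It had 57.9, 101 and 64.2 CPM in KO with IFNγ, 35.5, 63.4 and 73.3 CPM in wild type with IFNγ, 114, 90.2 and 18.5 CPM in KO with PBS and 9.57, 11.7 and 2.43 CPM in wild type with PBS. Each of the 3 other groups lay wholly above wild type with PBS, and they overlapped one another. The fitted differences from wild type with PBS, which all 3 comparisons share, were 3.24 ± 0.74 for KO with IFNγ (edgeR adjusted p = 0.311), 2.86 ± 0.73 for wild type with IFNγ (edgeR adjusted p = 1) and 3.23 ± 0.74 for KO with PBS (edgeR adjusted p = 0.196). Without KO PBS library 2 the difference for KO with PBS was 3.02. KO with IFNγ differed from KO with PBS by 0.01 ± 0.68 (95% interval -1.32 to 1.33) and from wild type with IFNγ by 0.38 ± 0.68. The IFNγ effect in KO minus that in wild type was -2.86 ± 0.98 for Irf9, which was not called either (edgeR adjusted p = 0.808).

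The summed level of 7 Müller glia markers had the same order of libraries as Irf9 within each PBS group, but not within the IFNγ groups. It was 4507, 1064 and 2026 CPM in KO with IFNγ, 2585, 4936 and 2194 CPM in wild type with IFNγ, 4467, 3715 and 701 CPM in KO with PBS and 878, 1102 and 867 CPM in wild type with PBS. The KO PBS library lowest for Irf9 was also lowest for these markers. In KO with IFNγ the order was reversed, and library 2 was lowest for the markers and highest for Irf9, at 101 CPM. In wild type with IFNγ library 3 was lowest for the markers and highest for Irf9, at 73.3 CPM. The part of these cells in the Irf9 values was not tested.

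Across the retinal comparisons edgeR called 0 of the 5 tested members in each of 6. It called 0% of all genes for IFNγ in KO, for IFNγ in wild type, for KO against wild type with IFNγ and for the difference of the IFNγ effects, 0.0222% for KO against wild type with PBS, and 0.0519% for KO with IFNγ against wild type with PBS. At an unadjusted edgeR p under 0.05 stood 3 of 5 members for IFNγ in wild type, beside 542 of all 13487 genes tested. For KO against wild type with PBS it was 2 of 5, beside 1281 genes. For the difference of the IFNγ effects it was 2 of 5, beside 721 genes. For KO with IFNγ against wild type with PBS it was 3 of 5, beside 1058 genes. For IFNγ in KO and for KO against wild type with IFNγ it was 0 of 5, beside 879 and 668 genes. Limma-voom called 0 of 5 throughout. DESeq2 called Irf9 and Irf1 in 3 comparisons: IFNγ in wild type, KO against wild type with PBS, and KO with IFNγ against wild type with PBS, where it called 1.51%, 3.85% and 2.58% of all genes. DESeq2 was not run without KO PBS library 2, which held 1117 of the 1237 Irf1 counts in KO with PBS.

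Irf1 had no count in wild type with PBS. It had 160, 73 and 590 counts in KO with IFNγ, 0, 18 and 77 counts in wild type with IFNγ, 7, 1117 and 113 counts in KO with PBS and 0, 0 and 0 counts in wild type with PBS. All 6 KO libraries and 2 of 6 wild-type libraries held Irf1 reads, and the lowest KO library with IFNγ, at 4.70 CPM, lay within the wild-type range with IFNγ of 0 to 4.77 CPM. Set against the floor of 3 counts per library, the mean of Irf1 was at least 78.2-fold higher in KO with IFNγ, at least 9.30-fold higher in wild type with IFNγ and at least 108-fold higher in KO with PBS than in wild type with PBS. These bounds allow for the counts of 0 only and not for the spread between libraries. EdgeR called none of these differences. Approximate 95% intervals from the SE of the fit (log2) were 5.24 to 16.9, 2.66 to 13.4 and 5.63 to 17.5. With 0 counts in the reference group the fitted fold has no firm value, so these intervals do not bound it. In each group 1 library carried much of the bound. It was at least 39.0-fold for KO with IFNγ without library 3, at least 3.48-fold for wild type with IFNγ without library 3, and at least 14.7-fold for KO with PBS without library 2, the one with microglia markers.

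Irf7 appeared in some libraries of each group. Its counts were 197, 294 and 51 in KO with IFNγ, 50, 0 and 347 in wild type with IFNγ, 0, 238 and 0 in KO with PBS, against counts of 0, 0 and 2 in wild type with PBS. With IFNγ 5 of 6 libraries held it above the floor. With PBS KO library 2 alone did, so that without that library both PBS groups were at or under the floor. Of the 397 counts in wild type with IFNγ 347 came from library 3. No fold is given against wild type with PBS, whose 3 libraries held 2 counts together.

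**Figure D4:**
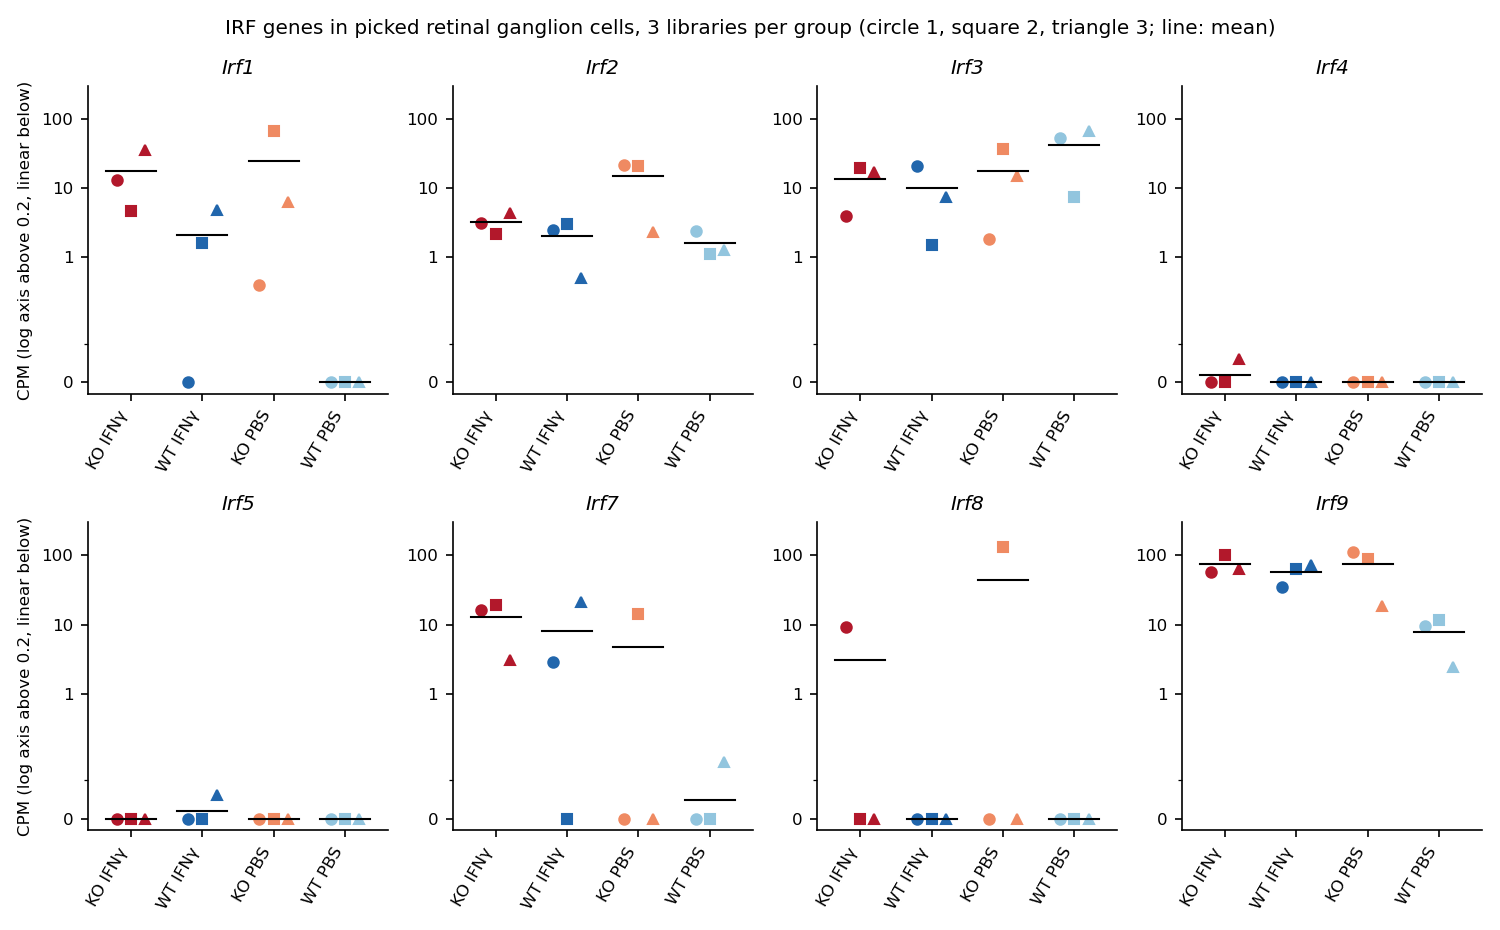
Level of each IRF gene in CPM in the 12 retinal libraries (log axis, linear near 0), with 1 point per library and a line at the mean of each group. Irf9 is lowest in wild type with PBS, at 2.43 to 11.7 CPM, and the Irf8 level of 132 CPM belongs to KO PBS library 2.

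Irf8, a microglial factor, had 2185 counts in KO PBS library 2 and 114 counts in KO IFNγ library 1, and 0 counts in the other 10 retinal libraries. KO PBS library 2 is the one with microglia markers, while KO IFNγ library 1 had the lowest macrophage and microglia sum of all, 14.4 CPM, though 11 of the 18 markers were detected in it, as in 1 other library and fewer than the 17 in KO PBS library 2. Irf4 and Irf5 had at most 1 count in any library and were at 0 in 11 of 12, and a count of 0 allows up to 3 counts, or 0.175 to 0.227 CPM.

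**Figure D5:**
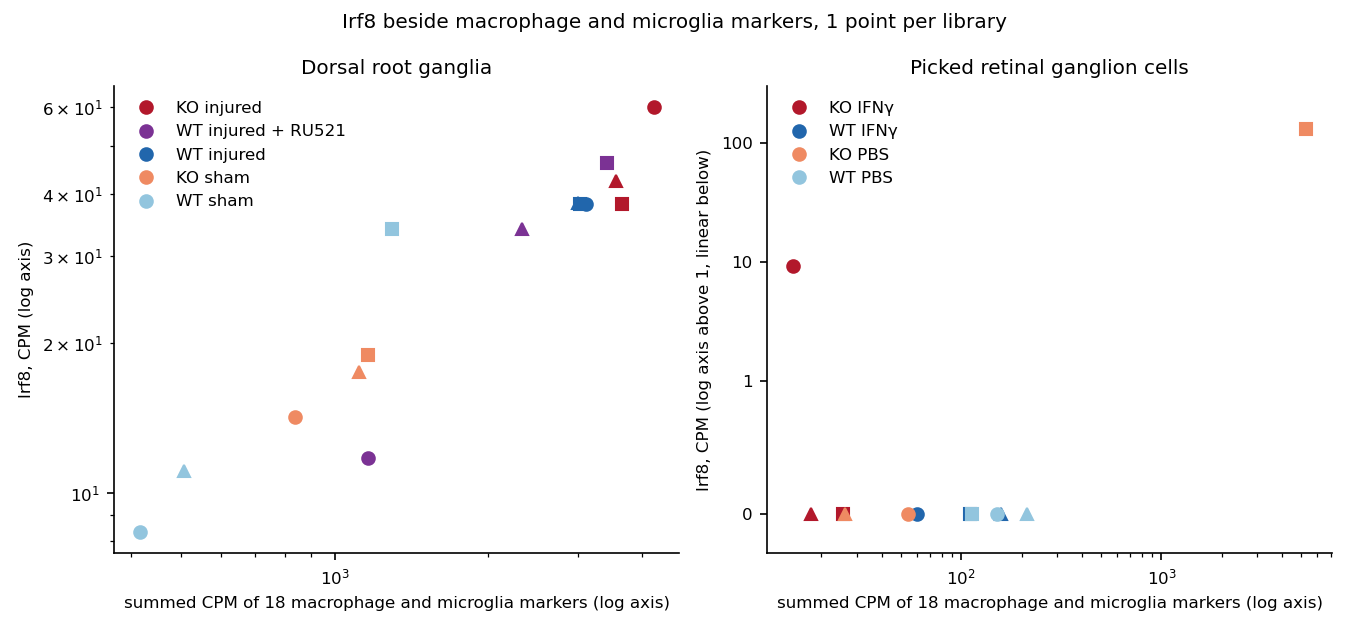
Irf8 in CPM (log axis, linear near 0 in the retinal panel) against the summed CPM of 18 macrophage and microglia markers (log axis), with 1 point per library, colour for the group and shape for the library number (circle 1, square 2, triangle 3). In ganglia Irf8 is high where the marker sum is high, and among retinal libraries KO PBS library 2 stands alone at 5295 CPM of marker sum and 132 CPM of Irf8.

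Irf3 was highest in wild type with PBS, without a call. It had 4.01, 19.4 and 16.8 CPM in KO with IFNγ, 20.7, 1.5 and 7.43 CPM in wild type with IFNγ, 1.85, 36.7 and 14.7 CPM in KO with PBS and 52.4, 7.38 and 67.2 CPM in wild type with PBS. The groups overlapped, and wild type with IFNγ differed from wild type with PBS by -2.10 ± 1.20. Irf2 had 21.8, 21.1 and 2.29 CPM in KO with PBS, against 2.39, 1.11 and 1.25 CPM in wild type with PBS. In both IFNγ groups Irf2 lay between 0.496 and 4.36 CPM, so its high values were those of KO PBS libraries 1 and 2, the second of which held microglia markers.

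Targets of the IRFs were read in the same retinal libraries. The 20 ISGF3 targets summed to 608 to 2733 CPM in KO with IFNγ, 82.0 to 354 CPM in wild type with IFNγ, 104 to 721 CPM in KO with PBS and 16.9 to 60.9 CPM in wild type with PBS. The 20 targets of Irf1 and IFNγ summed to 2214 to 6412 CPM in KO with IFNγ, 1421 to 3640 CPM in wild type with IFNγ, 1349 to 3452 CPM in KO with PBS and 150 to 478 CPM in wild type with PBS. In both lists each other group lay above wild type with PBS, also without KO PBS library 2, at 104 and 210 CPM for ISGF3 targets and 1349 and 1624 CPM for targets of Irf1 and IFNγ. In KO with IFNγ against wild type with PBS edgeR called 3 of the 12 tested targets of Irf1 and IFNγ higher, the peptide-loading gene Tap1, the class I light chain B2m and the immunoproteasome subunit Psmb9, and 1 of the 14 tested ISGF3 targets, Oasl2. In KO against wild type with PBS it called Psmb9 and Oasl2, also without KO PBS library 2, and all of these genes were named after their values were seen. B2m averaged 3857 ± 1880 CPM in KO with IFNγ and 224 ± 192 CPM in wild type with PBS (SD, n = 3 each), a difference of 4.10 ± 0.66. In both of these groups B2m alone made up most of the mean sum of the targets of Irf1 and IFNγ. Of those 20 genes 5 to 14 were detected per retinal library, so that sum does not show a rise of the whole list. The 11 interferon genes had 0 counts in all 12 retinal libraries.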

How the data were processed

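RNA from 15 ganglion libraries and 12 retinal libraries was read as gene counts. The submitters' processing notes name Trim Galore for trimming, STAR for alignment and the build GRCm38 (mm10), without versions. The deposited ganglion values are raw counts made by the authors with featureCounts 2.0.1 on Ensembl 101, summed over all exons without strand at a mapping quality of at least 10, per the file headers. The deposited retinal values are raw counts too, and no source used here names their counter or annotation. The retinal table ends in 1 line with no gene name, which equals the column sum in 12 of 12 libraries and is 50% of the file's total, and it was left out.

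From the counts, 18517 ganglion and 13487 retinal genes passed edgeR's filterByExpr and were fitted per experiment over all groups with edgeR 4.0.16 (TMM, robust quasi-likelihood F test, R 4.3.3). P-values were adjusted over all genes tested by Benjamini-Hochberg, with a threshold of 0.05. The SE was taken from the edgeR fold change and its F statistic, and 95% intervals from the SE by a normal approximation. These intervals are somewhat narrow, and some exclude 0 at an unadjusted edgeR p above 0.05. TPM used the gene lengths in the ganglion file. DESeq2 1.42.0 and limma 3.58.1 (voom with sample weights) were alternatives, beside DESeq2 size factors, no low-count filter, a replicate block, detected genes as a covariate, fits of the compared groups only and libraries left out. Groups were taken from the sample titles. Depth limits precision through counting error, and 3 counts in a library were taken as the floor.

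The text names every member, Ptpn2 and Cgas. Of each pathway list it names up to 3 called genes of smallest p where an IRF was called, and the 3 genes most correlated with each member. The members and lists were chosen with earlier results of these data known, and not every IRF gene or listed gene is reported here.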

Additional observations from a re-analysis of the deposited data

Results flagged for a closer look

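The injury effect on Irf7 differed between genotypes by the test of that difference. It was 3.53 ± 0.70 larger (log2) in KO than in wild-type ganglia (edgeR adjusted p = 0.0372). Over 20 alternatives this difference lay between 2.36 and 4.25, and it was called in 12 of them, with adjusted p of up to 0.114. Irf7 had 795, 189 and 178 CPM in KO injured against 17.5, 18.0 and 21.9 CPM in KO sham ganglia, and 20.3, 26.4 and 22.5 CPM in wild-type injured against 8.89, 22.3 and 8.39 CPM in wild-type sham ganglia.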

How the results depend on the processing

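The calls of Irf1, Irf5, Irf7 and Irf9 for injury in KO ganglia, and of Irf1 between the injured genotypes, held in 13 of 13 alternatives. Of 1112 fold changes of members over all alternatives 65 changed sign, of which 0 passed the test in either fit. Of the fold changes printed, for injury in wild type Irf7 was -0.12 with detected genes as a covariate, against 0.81 in the fit reported, and Irf4 was -0.24 with that covariate and -0.38 without wild-type sham libraries 1 and 3, against 0.66. Irf8 for RU521 was 0.35 with that covariate, and between -0.74 and 0.07 (0.065 without RU521 library 1) with 1 library left out. Irf9 for IFNγ in KO was -0.037 with DESeq2 size factors in edgeR, -0.037 with DESeq2, -0.00029 with no filter, -0.21 with the covariate, and between -0.45 and 0.46 with 1 library left out. For injury in wild type the number of IRF genes called, 1 in the fit reported, was 4 with no filter, 2 with DESeq2, 6 with limma-voom, 2 with the replicate block, 0 with the covariate, 0 without wild-type sham libraries 1 and 3, and 0 to 4 with 1 library left out. For the difference of the injury effects it was 2 with no filter, DESeq2, limma-voom or the covariate, and 1 with only the compared groups (Irf1, not Irf7). It was 0 with the replicate block (Irf7 at 3.40, edgeR adjusted p = 0.0818), and 0 to 1 with 1 library left out. DESeq2 called 2 members, against 0 with edgeR, for IFNγ in wild type, KO against wild type with PBS, and KO with IFNγ against wild type with PBS. The rank of Irf3 by CPM, with no division by length, was 3 in wild-type injured ganglia with and without RU521 and 2 in KO sham ganglia. Deviations of same-numbered libraries correlated between -0.174 and 0.356 in ganglia and between -0.0262 and 0.0680 in retinal cells, so the libraries share only a number and the replicate block is no test of pairing. The number of all genes called ranged over the alternatives from 849 to 9257 for injury in wild type (3070 in the fit reported), 869 to 4412 for injury in KO (2021), 194 to 2101 between injured genotypes (407), 37 to 1996 for the difference of the injury effects (83), 2 to 3008 between sham genotypes (25) and 476 to 6186 for RU521 (1774). In the retinal comparisons it ranged from 0 to 519. The counts of IRF genes under each alternative stand against these moving numbers of all genes. A higher or lower count is therefore not read as a result about the IRF genes. The cause of these changes was not tested. Alternatives on the list counts and list medians and on the Irf1 bounds in retinal cells were chosen after seeing the data. At this depth retinal members at 0 counts allow up to 3 counts per library.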
